A study of Mus musculus with 6 samples.

Results

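Dendritic cell markers are described here by 10 genes, Zbtb46, Xcr1, Clec9a, Itgae, Cd24a, Cd209a, Ccr7, Fscn1, Ccl17 and Ccl22, in RNA-seq of CD11b+ cells from the mouse cortex. The genes were taken by symbol from the deposited table, which held all 10 among its 16516 genes. The samples came from male C57BL6/J mice aged 8 to 10 weeks that received 4 daily intraperitoneal injections of normal saline (NS) or of lipopolysaccharide from Escherichia coli 055:B5 at 500 µg/kg (4LPS). On day 7 after the first injection, CD11b+ cells were isolated from the cortex by MACS, and each group had 3 samples, each pooled from 2 mice. Lipopolysaccharide is a bacterial cell wall component that mimics infection, and the comparison asks how repeated peripheral exposure changes the RNA of these cells.

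Conventional dendritic cells sample antigen in tissues and present it to T cells on MHC class II. In the brain they are sparse and sit mainly in the meninges and choroid plexus, apart from the microglia that fill the parenchyma. The type 1 subset (cDC1) takes up dead cells and cross-presents their antigen to CD8 T cells, the type 2 subset (cDC2) mainly primes CD4 T cells, and after activation both mature and migrate to lymph nodes along a chemokine gradient. Dendritic cells can carry CD11b, the integrin chain on which the beads select, but cDC1 carry little of it, so the selection itself bears on which dendritic cells could be retained.

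Of the 10 genes, 9 passed the filter on low counts, and 4 of these were higher in 4LPS samples: the cDC1 receptors Xcr1 and Clec9a, the migration receptor Ccr7 and the chemokine Ccl22. They rose 2.95-fold to 4.72-fold, to means of 1.31 to 3.18 CPM (counts scaled to a common library total after TMM normalization) in 4LPS samples. Zbtb46, Itgae, Cd24a, Cd209a and Fscn1 did not pass at an adjusted p under 0.05 in edgeR's quasi-likelihood test, and Ccl17 was under the filter. No member was lower by this test, although 1, Fscn1, was lower at an unadjusted p under 0.05, and DESeq2 also called it lower. Among all 13151 genes tested, 9.95% were higher and 6.43% were lower. Xcr1, Clec9a and Ccr7 passed the filter, which asks for 0.652 CPM in 3 samples, through the 4LPS samples alone, while Ccl17, at a like NS level, did not pass it. The share of tested members that were called is therefore not independent of the filter. Fold changes are those of 4LPS over NS. Levels below are CPM, given as mean ± SD (n = 3 in either group). In bulk samples, more cells of a type and more RNA per cell cannot be told apart.

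The samples were labelled as microglia, and microglial genes were abundant in them. A list of 12 microglial markers summed to 48953 to 51812 CPM in NS and 48514 to 49098 CPM in 4LPS samples, with Tmem119 and P2ry12 among them. Total counts were 15158342 to 15746606, so 1 CPM stood for about 15 to 16 counts. NS replicate 3 stood apart from the other NS samples in a list of 9 neutrophil markers, which summed to 185.8 and 192.7 CPM in NS replicates 1 and 2 and to 731.7 CPM in replicate 3. In the 4LPS samples this sum was 1139, 481.8 and 746 CPM.

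The upstream sequences of 4 members are shown because they set the called cDC1 receptors beside Ccl22 and its neighbour Ccl17, which are both ligands of the receptor CCR4. Ccl22 (8:95471226-95478327, 3 exons) and Ccl17 (8:95534358-95538664, 3 exons) lie on the plus strand of chromosome 8 in GRCm39 with 56030 bases between them. Each line holds the 250 bases before the RefSeq gene start, 5′ to 3′ on the strand of the gene, and 7 of the 10 members had an entry. The RefSeq windows are in GRCm38.p6, at chr9:123862030-123862279 on the minus strand for Xcr1, chr6:129408612-129408861 on the plus strand for Clec9a, chr8:94745434-94745683 on the plus strand for Ccl22 and chr8:94810203-94810452 on the plus strand for Ccl17. Capitals mark matches, on either strand, to a minimal NF-kB motif, which is GGG and CC with 5 bases of any letter between them.
Xcr1: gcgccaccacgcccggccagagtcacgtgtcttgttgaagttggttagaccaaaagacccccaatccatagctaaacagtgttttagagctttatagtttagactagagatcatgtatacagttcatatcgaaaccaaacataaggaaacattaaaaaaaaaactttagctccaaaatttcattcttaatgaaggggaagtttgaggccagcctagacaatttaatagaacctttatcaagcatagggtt
Clec9a: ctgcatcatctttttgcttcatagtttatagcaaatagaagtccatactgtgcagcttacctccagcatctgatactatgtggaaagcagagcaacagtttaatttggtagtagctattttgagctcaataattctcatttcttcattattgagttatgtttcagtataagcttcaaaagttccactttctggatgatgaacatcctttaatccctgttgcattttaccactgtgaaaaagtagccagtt
Ccl22: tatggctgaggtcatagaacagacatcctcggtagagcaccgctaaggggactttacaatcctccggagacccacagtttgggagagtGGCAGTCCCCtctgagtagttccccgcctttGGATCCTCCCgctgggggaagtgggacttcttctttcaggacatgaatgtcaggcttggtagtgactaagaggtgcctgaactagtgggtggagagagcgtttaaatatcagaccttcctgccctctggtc
Ccl17: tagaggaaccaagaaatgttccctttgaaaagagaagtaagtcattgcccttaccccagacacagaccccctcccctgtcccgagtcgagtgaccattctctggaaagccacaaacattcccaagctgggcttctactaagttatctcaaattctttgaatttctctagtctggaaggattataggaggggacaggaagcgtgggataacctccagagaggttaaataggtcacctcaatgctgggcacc

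The Ccl22 window held 2 matches to this motif, both read on the minus strand, at 162 and 131 bases before the start. The windows of Xcr1, Clec9a, Ccl17 and Cd209a held none, and that of Fscn1 held 2, at 59 and 20 bases. This motif is common, with a match in 45.8% of 32851 mouse promoter windows of the same length. Further motifs were searched on both strands: GGAA and GAAA with 2 bases between them for an ETS-IRF composite (in 2.3% of windows), GAAA and GAAA with 2 bases between them for an interferon response (2.98%), GAGGAAGT for PU.1 (2.44%) and TGANTCA for AP-1 and BATF (6.75%). Of these, 1 match was found in the member windows, to TGANTCA at 61 bases before the RefSeq start of Zbtb46. The RefSeq starts were not mapped to the GRCm39 positions given for the genes. GC content ran from 35.6% in the Clec9a window and 38.8% in the Xcr1 window to 53.6% for Ccl22 and 62.4% for Fscn1. No matches overlapped. A match is a description of letters and not a measured binding site.

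Zbtb46, a zinc finger transcription factor that marks conventional dendritic cells and their committed precursors (2:181012111-181104879, minus strand, GRCm39, 5 exons), was at 3.71, 3.39 and 5.82 CPM in NS replicates 1 to 3 and at 6.47, 7.81 and 6.37 CPM in 4LPS replicates 1 to 3. Every 4LPS sample lay above every NS sample, but NS replicate 3 lay close to the 4LPS samples. The means were 4.31 ± 1.32 and 6.89 ± 0.81 CPM, with a log2 fold change of 0.67 (standard error 0.23, 95% interval 0.14 to 1.21, edgeR adjusted p = 0.0853). Without NS replicate 3 it was 0.96 with an adjusted p of 0.0123 in edgeR, so the call depended on that sample.

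Xcr1, the receptor through which cDC1 follow the chemokine XCL1 (9:123681380-123691094, minus strand, 2 exons), had the largest fold change of the members tested. It had 5, 4 and 4 counts in NS replicates 1 to 3 and 18, 14 and 26 counts in 4LPS replicates 1 to 3, and all 4LPS samples lay above all NS samples. The means were 0.27 ± 0.04 and 1.31 ± 0.41 CPM. This was a 4.72-fold rise, a log2 fold change of 2.24 (standard error 0.41, 95% interval 1.28 to 3.20, edgeR adjusted p = 0.0105), and leaving out any 1 of the 6 samples kept it past the threshold. The counts summed to 13 and 58, a ratio of 4.83 for equal depth with a 95% interval of 2.62 to 9.61 that covers counting error only.

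Clec9a, a lectin receptor of cDC1 that recognizes actin exposed by dead cells (6:129385825-129401726, plus strand, 6 exons), had 9, 9 and 17 counts in NS replicates 1 to 3 and 35, 31 and 30 counts in 4LPS replicates 1 to 3. Groups did not overlap, and within NS, replicate 3 was the highest. The level rose from 0.73 ± 0.28 to 2.17 ± 0.17 CPM, 2.95-fold, with a log2 fold change of 1.56 (standard error 0.33, 95% interval 0.80 to 2.32, edgeR adjusted p = 0.0173). The call was lost in edgeR on leaving out NS replicate 1 (log2 fold change 1.41, adjusted p = 0.0693) or 2 (1.41, 0.0578) and on leaving out 4LPS replicate 1 (1.5, 0.0552) or 2 (1.59, 0.0522).

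Itgae encodes CD103, the integrin chain that pairs with the chain encoded by Itgb7 and binds E-cadherin, and it is carried by tissue cDC1 and by resident T cells (11:72981409-73039917, plus strand, 31 exons). It was at 6.92, 5.59 and 3.9 CPM in NS replicates 1 to 3 and at 8.9, 7.2 and 8.88 CPM in 4LPS replicates 1 to 3. The groups did not overlap, but the lowest 4LPS sample lay just above the highest NS sample. The log2 fold change was 0.61 (standard error 0.22, 95% interval 0.10 to 1.11, edgeR adjusted p = 0.0982), and it passed under none of the 17 alternative settings tried.

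Cd24a, a small glycoprotein on the surface of cDC1 that neutrophils, B cells and immature neurons also carry (10:43454280-43460264, plus strand, 2 exons), was at 13.5, 10.6 and 27.8 CPM in NS replicates 1 to 3 and at 25.2, 20.0 and 18.2 CPM in 4LPS replicates 1 to 3. NS replicate 3 was the highest of the 6 samples, so the groups overlapped. The log2 fold change was 0.29 (standard error 0.33, 95% interval -0.48 to 1.05, edgeR adjusted p = 0.579). Without NS replicate 3 it was 0.81 (edgeR adjusted p = 0.0164). The neutrophil marker sum was also several times higher in NS replicate 3 than in the other NS samples, and without that sample all 9 neutrophil markers were higher in 4LPS as well. The part of neutrophils in the level of Cd24a was not tested.

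**Figure D1:**
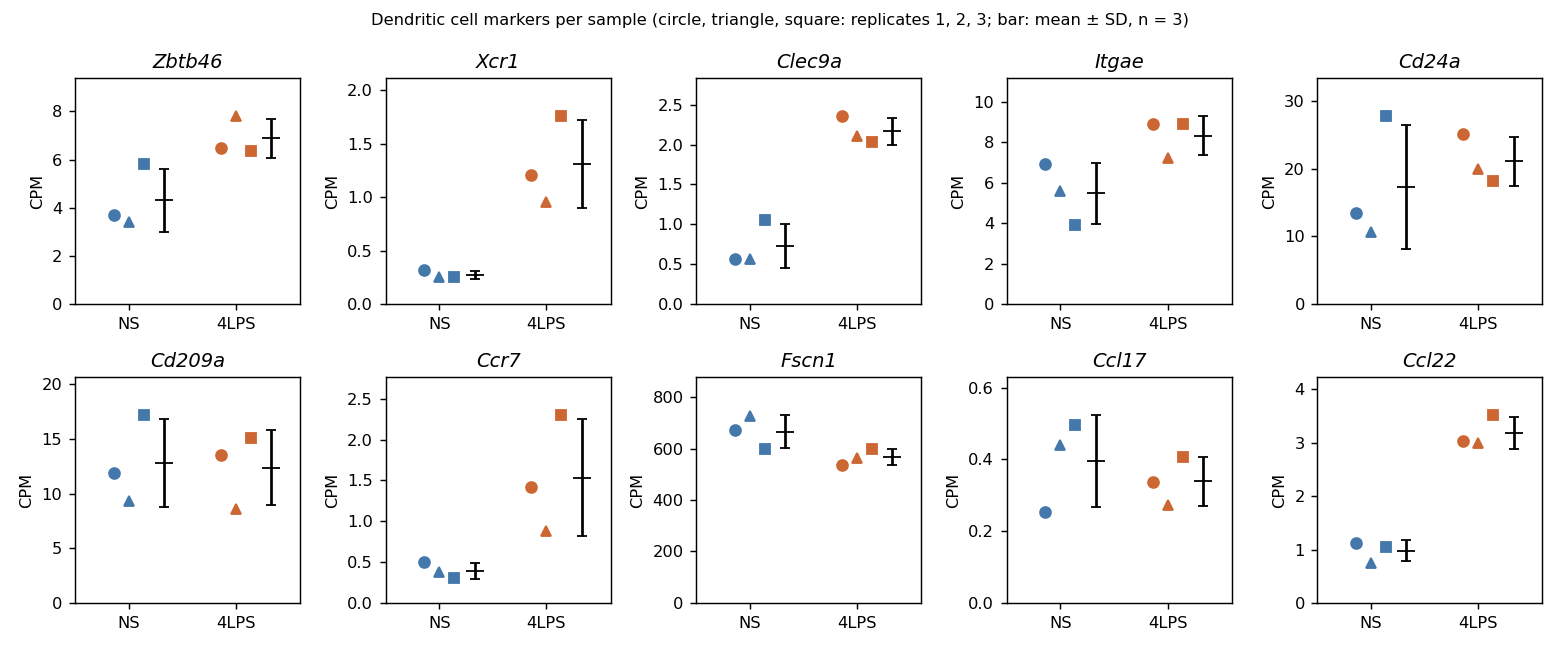
Level of each of the 10 dendritic cell markers in CPM in the 3 NS and 3 4LPS samples, each panel with its own axis from 0. Points are samples, with circle, triangle and square for replicates 1, 2 and 3, and bars are mean ± SD. All 4LPS samples lie above all NS samples for Zbtb46, Xcr1, Clec9a, Itgae, Ccr7 and Ccl22, and below them for Fscn1. Cd209a, Ccl17 and Cd24a overlap.

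Cd209a, a C-type lectin known as DC-SIGN that marks monocyte-derived dendritic cells and cDC2 (8:3793397-3798984, minus strand, 7 exons), was nearly equal between the groups. It was at 11.9, 9.3 and 17.2 CPM in NS replicates 1 to 3 and at 13.5, 8.56 and 15.1 CPM in 4LPS replicates 1 to 3, and the ranges overlapped almost fully. The log2 fold change was -0.05 (standard error 0.27, 95% interval -0.67 to 0.57, edgeR adjusted p = 0.918). It turned to 0.22 without NS replicate 3 and to 0.17 without 4LPS replicate 2, so the data give it no direction. Cd209a lies among close relatives on chromosome 8, and RSEM divides a read among the genes it matches, so the split between family members is uncertain.

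Ccr7, the receptor that guides mature dendritic cells and naive T cells towards CCL19 and CCL21 (11:99035022-99045911, minus strand, 3 exons), had 8, 6 and 5 counts in NS replicates 1 to 3 and 21, 13 and 34 counts in 4LPS replicates 1 to 3. The groups did not overlap, and the 4LPS samples were spread more widely than those of NS. The level rose from 0.40 ± 0.10 to 1.53 ± 0.72 CPM, 3.81-fold, with a log2 fold change of 1.93 (standard error 0.46, 95% interval 0.86 to 3.0, edgeR adjusted p = 0.0282). This call was the least stable of the 4. In edgeR it was lost on leaving out any NS replicate (adjusted p = 0.0699, 0.079 and 0.0507 for replicates 1 to 3) and on leaving out 4LPS replicate 1 (0.0619) or 3 (0.0907), while the log2 fold change stayed between 1.53 and 2.22.

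Fscn1 encodes fascin, an actin-bundling protein of the long processes of mature dendritic cells that other cells with processes also carry (5:142946098-142958953, plus strand, 5 exons). It was at 673, 727 and 599 CPM in NS replicates 1 to 3 and at 536, 564 and 598 CPM in 4LPS replicates 1 to 3. The 4LPS samples lay below those of NS, with 4LPS replicate 3 and NS replicate 3 almost equal. The log2 fold change was -0.24 (standard error 0.08, 95% interval -0.42 to -0.05), with an unadjusted p of 0.0182 and an adjusted p of 0.0798 in edgeR. It was lower with an adjusted p of 0.0181 in DESeq2 and of 0.0236 in edgeR without a composition factor.

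Ccl22, a chemokine of mature dendritic cells that attracts regulatory T cells and TH2 cells through CCR4, had 18, 12 and 17 counts in NS replicates 1 to 3 and 45, 44 and 52 counts in 4LPS replicates 1 to 3. The groups did not overlap, with 44 counts in the lowest 4LPS sample and 18 in the highest NS sample. The level rose from 0.98 ± 0.20 to 3.18 ± 0.30 CPM, 3.23-fold, with a log2 fold change of 1.69 (standard error 0.26, 95% interval 1.10 to 2.29, edgeR adjusted p = 0.00457). Of the 4 calls it had the smallest adjusted p, and it passed under every one of the 16 alternatives that kept it, including each sample left out.

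Ccl17, the other CCR4 ligand, had 4, 7 and 8 counts in NS replicates 1 to 3 and 5, 4 and 6 counts in 4LPS replicates 1 to 3, which overlapped. Counts summed to 19 and 15, a ratio of 0.86 for equal depth with a 95% interval of 0.40 to 1.77 for counting error. In the fit without a filter on low counts its log2 fold change was -0.22 (95% interval -1.32 to 0.88, edgeR adjusted p = 0.802). At this depth a change in Ccl17 within that interval was not detectable. Its upper bound lies below the lower bound of Ccl22, whose 95% interval was 1.10 to 2.29, but the difference between both genes was not tested.

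**Figure D2:**
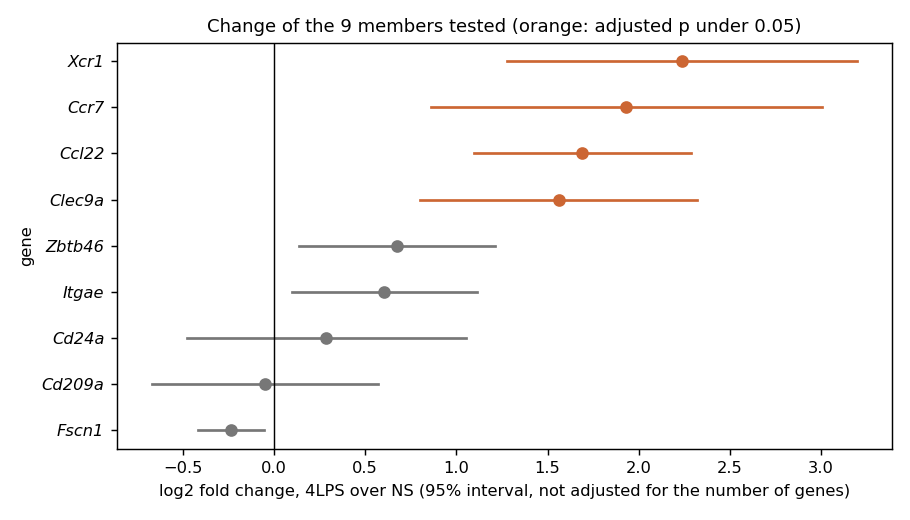
Log2 fold change (4LPS over NS) of the dendritic cell markers from edgeR, with 95% intervals, against a line at 0. Xcr1, Ccr7, Ccl22 and Clec9a lie furthest to the right, from 1.56 to 2.24, and Fscn1 lies left of 0 at -0.24.

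Without overlap between the groups, 6 of the 10 members lay above in 4LPS (Zbtb46, Xcr1, Clec9a, Ccr7, Ccl22 and Itgae) and 1 lay below (Fscn1). For all genes tested, 20.0% lay above and 17.4% below in this sense. Xcr1, Clec9a and Ccr7 passed the filter through the 4LPS samples alone, so the count above is not independent of the filter. The 10 members include Ccl17, which was not tested, whereas the shares cover tested genes only.

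Compared per length in FPKM, which allows levels of different genes to be set side by side, Fscn1 stood far above the other members. In NS samples it was at 289 ± 28 FPKM, followed by Cd24a at 11.6 ± 6.17 and Cd209a at 11.01 ± 3.43, which did not differ beyond their spread. Zbtb46 (2.23 ± 0.60), Ccl17 (1.75 ± 0.57) and Itgae (1.59 ± 0.46 FPKM) came next and overlapped as neighbours. Ccl22 (0.66 ± 0.14), Clec9a (0.26 ± 0.11), Ccr7 (0.25 ± 0.07) and Xcr1 (0.07 ± 0.01 FPKM) were the lowest, and among these only Clec9a and Ccr7 overlapped. Which cells the Fscn1 RNA came from was not tested. By CPM, the 10 members summed to 657.2 to 758.3 in NS and 598.5 to 656.3 in 4LPS samples, most of it from Fscn1, so that the sum moved opposite to the 4 called members.

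The order changed in 4LPS samples for the middle and lower members. Ccl22 rose from the seventh to the sixth place, at 2.02 ± 0.18 FPKM, where it overlapped Itgae at 2.26 ± 0.26 and lay above Ccl17 at 1.44 ± 0.36 FPKM. In NS the order of these chemokines in FPKM was the opposite, with all Ccl17 samples above all Ccl22 samples. These Ccl17 values rest on 4, 7 and 8 counts. By CPM, which is not scaled for length, Ccl17 was below Ccl22 in NS too, at means of 0.40 and 0.98. Ccr7 was at 0.88 ± 0.41 and Clec9a at 0.72 ± 0.06 FPKM, which overlapped, and Xcr1 remained the lowest at 0.30 ± 0.09 FPKM. The first 4 places were held by Fscn1 at 229.7 ± 10.8, Cd24a at 13.3 ± 2.41, Cd209a at 10.0 ± 2.79 and Zbtb46 at 3.35 ± 0.39 FPKM, as in NS.

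**Figure D3:**
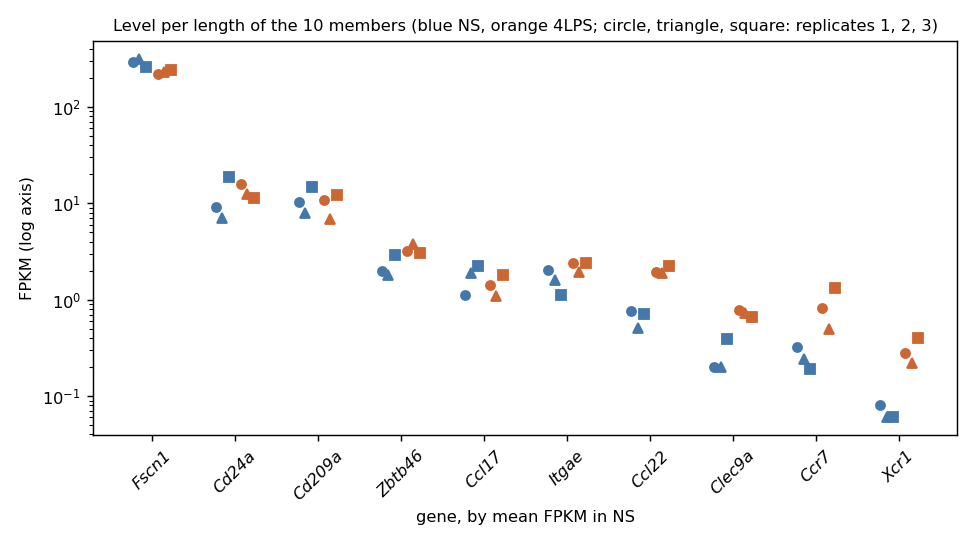
Level per length (FPKM, log axis) of the 10 markers in every sample, ordered by the NS mean, with blue for NS and orange for 4LPS. Fscn1 lies above 200 FPKM, and Xcr1, Ccr7 and Clec9a lie mostly below 1 FPKM.

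Genes nearest in pattern were named for each member tested, as the 3 with the smallest root mean square difference of log2 levels centred over the 6 samples. Xcr1 and Ccr7 shared the nearest gene, Dusp5, at a difference of 0.12 and 0.15 log2 units, followed by Ikbke and Zap70 for Xcr1 and by Mmp12 and Zfp541 for Ccr7. Zap70 encodes a kinase of T cell and NK cell receptors. Clec9a was nearest to Fgl2, Pvrig and Bst1 (0.14 to 0.15), and Ccl22 to E2f1, Bcl3 and H2-K1 (0.11 to 0.14). Fscn1 was nearest to Tmem119, Selplg and Vsir (0.06 to 0.08) among 171 genes of at least its counts, and Tmem119 is a marker of microglia. Zbtb46 was nearest to Cyria, Tgtp2 and Ccrl2, Cd209a to Plxnd1, Cd93 and Iqgap1, Itgae to Tuba1c, Septin9 and Gaa, and Cd24a to Ahnak, Thbs1 and Anxa2. With 6 samples in 2 groups, this likeness is led by the difference between the groups where that is large.

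The 10 members were set beside 7 wider lists, which name 125 further genes of dendritic cells, their ligands and receptors and the Cd209 family. Of these, 115 were in the table and 98 were tested, and 45 rose and 1 fell, with a median log2 fold change of 0.47. Over all genes tested, 9.95% rose and 6.43% fell, and the median was -0.02. The counts of each list below are to be read beside these shares. Of the 98, 10 passed the filter through the 4LPS samples alone and 2 through the NS samples alone. The count of 45 became 29 without NS replicate 1 and 28 without 4LPS replicate 3. The lists were not tested against each other.

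Within the cDC1 list, 6 of 13 genes tested rose in 4LPS, with a median of 0.26. None fell at either the adjusted threshold or an unadjusted p under 0.05 in edgeR, or in DESeq2. The count of 6 was 4 on leaving out NS replicate 1 or 4LPS replicate 1, and 9 on leaving out NS replicate 3. With no composition factor, and in each limma fit on FPKM, 1 was lower. Id2, a repressor needed for cDC1 development, rose from 20.7 to 39.8 CPM, with a log2 fold change of 0.94 (edgeR adjusted p = 0.00262). Irf8, the factor that specifies cDC1 and is also expressed by microglia, had 0.25 (adjusted p = 0.012), and Wdfy4, needed for cross-presentation, had 0.26 (adjusted p = 0.00508). Cd8a, carried by lymphoid cDC1 and by CD8 T cells, had 2 counts in all NS samples and 42 in all 4LPS samples, a ratio of 22.7 with a 95% interval of 5.91 to 194 for counting error (edgeR adjusted p = 0.00646). Batf3, the partner of Irf8 in cDC1, was at 6.63 and 6.86 CPM and did not pass (adjusted p = 0.835 in edgeR). Batf3 was chosen after its values were seen.

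In the cDC2 list, 3 of 16 genes tested rose and none fell in edgeR, with 2 lower at an unadjusted p under 0.05 and 1 lower in DESeq2. The count of 3 was 4 without NS replicate 3 and 2 on leaving out any other sample. Without 4LPS replicate 3, 2 were lower. Cd7, a membrane protein that lymphocytes also carry, rose from 0.27 to 7.34 CPM (log2 fold change 4.72, edgeR adjusted p = 3.7e-05), and Ltb, which encodes lymphotoxin beta, from 4.79 to 8.56 CPM (0.83, adjusted p = 0.00772). Il1r2, a decoy receptor for interleukin-1 that neutrophils also carry, had 1.93 (adjusted p = 0.0475), and it passed in 1 of the 6 fits that left out a sample, that without NS replicate 3. Mgl2, a lectin of cDC2 and macrophages, went the other way, from 19.4 to 11.02 CPM (log2 fold change -0.81), but did not pass (edgeR adjusted p = 0.0535). Irf4, which directs cDC2, was at 15.2 and 14.4 CPM (adjusted p = 0.636 in edgeR), a gene chosen after its values were seen.

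In the list of mature migratory dendritic cells, 13 of 24 genes tested rose and none fell in edgeR or DESeq2. The median was 0.53, and 1 gene was lower at an unadjusted p under 0.05 in edgeR. The count of 13 ran from 9 without 4LPS replicate 3 to 15 without NS replicate 3. With no composition factor, 1 was lower. Relb and Nfkb2, subunits of the noncanonical NF-kB pathway, rose from 23.0 to 41.3 CPM (log2 fold change 0.84, edgeR adjusted p = 0.00105) and from 44.7 to 86.0 CPM (0.94, adjusted p = 3.77e-04). Zmynd15 rose from 5.97 to 14.9 CPM (1.32, adjusted p = 4.13e-04), and Ccl5, a chemokine that NK cells and T cells also make, from 1.602 to 62.0 CPM (5.26, adjusted p = 2.77e-05). Costimulatory genes were mixed. Cd86 and Icosl rose, with log2 fold changes of 0.36 and 0.43 (edgeR adjusted p = 0.00258 and 0.00313), whereas Cd83 and Cd40 had 0.52 and 0.81 and did not pass (0.118 and 0.177 in edgeR). Pdcd1lg2, which encodes the PD-1 ligand PD-L2, was under the filter with 0 counts in NS and 17 in 4LPS samples. Against a floor of 3 counts over the NS group this was a ratio of 6.13, which leaves out counting error and is not a lower bound. Cd86, Icosl, Cd83, Cd40 and Pdcd1lg2 were chosen after their values were seen.

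In the pan-dendritic and antigen presentation list, 12 of 18 genes tested rose and none fell at the adjusted or unadjusted threshold in edgeR or in DESeq2, with a median of 0.90. Flt3, the receptor for the growth factor of dendritic cells, had 39, 29 and 55 counts in NS replicates 1 to 3 and 132, 102 and 140 counts in 4LPS replicates 1 to 3, without overlap (log2 fold change 1.72, edgeR adjusted p = 0.00377). Itgax, which encodes CD11c, rose from 27.8 to 101 CPM (log2 fold change 1.86, edgeR adjusted p = 1.51e-04), and Ciita, the master regulator of MHC class II genes, from 5.65 to 14.8 CPM (1.39, adjusted p = 0.00514). H2-Oa, a regulator of peptide loading, had 0.47 (adjusted p = 0.00713). Itgax, Ciita and MHC class II genes are also expressed by activated microglia and macrophages. The count of 12 fell to 6 on leaving out NS replicate 1, to 6 also for 4LPS replicates 1 and 3, and to 7 for NS replicate 2.

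Among plasmacytoid and precursor genes, 2 of 10 tested rose and 1 fell, with a median of 0.51. The count higher was 4 on leaving out NS replicate 3 or under the replicate block, and 1 on leaving out NS replicate 1 or any single 4LPS replicate. Pacsin1, a membrane-bending protein of plasmacytoid dendritic cells and neurons, fell from 8.50 to 3.88 CPM (log2 fold change -1.13, edgeR adjusted p = 0.00787). Bst2, an interferon-induced protein, had 0.43 (adjusted p = 0.0113). Runx2 had 1.61 (adjusted p = 0.0304), and in edgeR the call was lost on leaving out NS replicate 1 (adjusted p = 0.0966) or any of 4LPS replicates 1 to 3 (0.0767, 0.0632 and 0.0875).

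**Figure D4:**
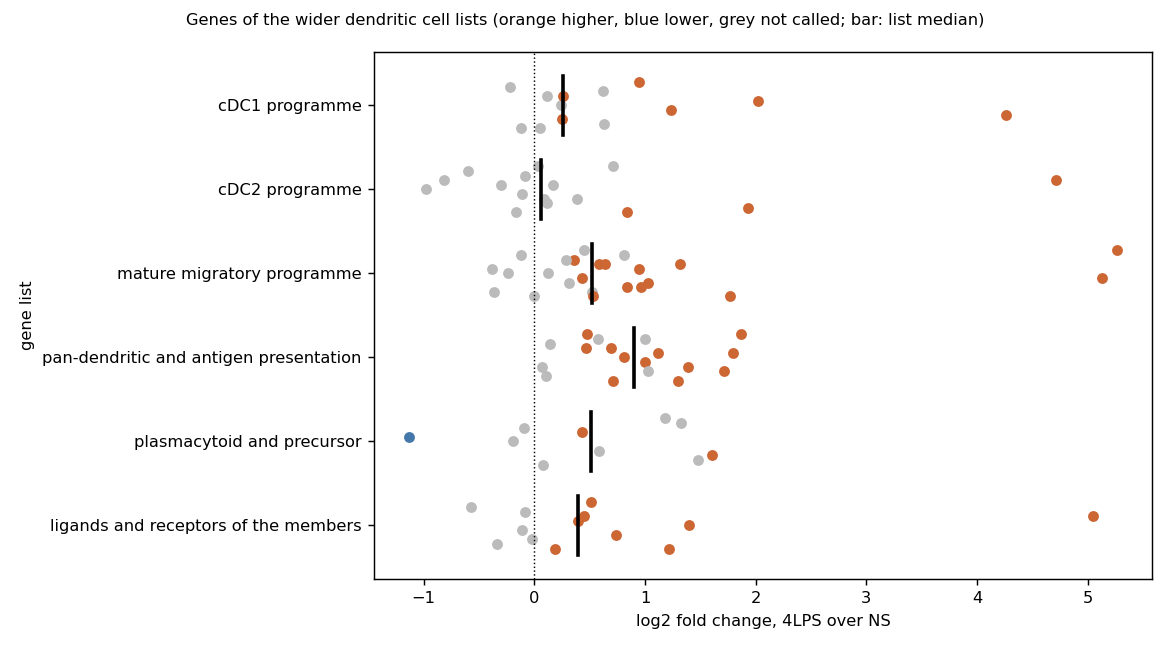
Log2 fold change (4LPS over NS) of each gene tested in 6 of the wider dendritic cell lists, one row per list, with orange for higher, blue for lower, grey for not called and a bar at the list median. Medians run from 0.06 for the cDC2 programme to 0.90 for the pan-dendritic and antigen presentation list.

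Ligands, receptors and partners of the members were measured in the same samples, and 8 of 13 tested rose and none fell at the adjusted or unadjusted threshold in edgeR or in DESeq2, with a median of 0.40. The count of 8 was 5 without 4LPS replicate 3. Xcl1, the ligand of Xcr1 that NK cells and CD8 T cells secrete, had 2, 1 and 1 counts in NS replicates 1 to 3 and 42, 35 and 57 counts in 4LPS replicates 1 to 3 (log2 fold change 5.05, edgeR adjusted p = 2.71e-04). Receptor and ligand of this pair were therefore both higher in the same samples. Xcr1 and Xcl1 each passed the filter through the 4LPS samples alone, so these calls are not independent of the filter. Csf2ra, Csf2rb and Csf2rb2, chains of the receptors for GM-CSF and related cytokines, had log2 fold changes of 0.73, 0.51 and 0.40 (edgeR adjusted p = 4.13e-04, 5.09e-04 and 0.00193).

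For the partners of Itgae, Itgb7 rose from 7.78 to 20.5 CPM (log2 fold change 1.40, edgeR adjusted p = 0.00813), whereas Itgae itself did not pass. Cdh1, which encodes E-cadherin, rose from 2.46 to 5.73 CPM (1.22, edgeR adjusted p = 0.0174), but the call was lost on leaving out NS replicate 1 (adjusted p = 0.0663), on leaving out 4LPS replicate 2 (0.0527) and on leaving out 4LPS replicate 3 (0.0635). Flt3l, the ligand of Flt3, was at 2.61 and 2.57 CPM (edgeR adjusted p = 0.964), so of this pair the receptor rose and the ligand did not pass. Ccl19, a ligand of Ccr7, had 3 counts in NS and 4 in 4LPS samples, too few to show a difference. Itgb7, Cdh1, Flt3l and Ccl19 were chosen after their values were seen.

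Relatives of Cd209a went in different directions. Cd209g rose from 0.54 to 2.19 CPM (log2 fold change 1.998, edgeR adjusted p = 0.0303), a call lost on leaving out NS replicate 1 (adjusted p = 0.105) or 2 (0.0915) or 4LPS replicate 1 (0.084) or 3 (0.0962). Cd209b and Cd209c had log2 fold changes of -2.34 and -1.38 and Cd209f of 0.81, and none of these passed (edgeR adjusted p = 0.067, 0.0691 and 0.158). DESeq2 called 1 member of this family lower and 1 higher.

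Markers of other cells moved in the same samples. A list of 13 NK cell markers summed to 9.87 to 16.5 CPM in NS and 151.7 to 174 CPM in 4LPS samples, and 12 of 13 rose. For T cells, the sum over 9 markers in the table was 5.22 to 6.94 and 13.7 to 16 CPM, 3 of the 4 tested rose, and the defining Cd3e had 1 count in all NS samples and 19 in all 4LPS samples. Ccr7, Itgae, Cd8a, Cd7, Ltb, Ccl5 and Xcl1 are also expressed by T cells or NK cells, and the part of those cells in their values was not tested. Nor was it tested for the other genes named from the lists, Id2 and Itgb7 among them. Xcr1 and Clec9a are not defining genes of NK or T cells, but their levels moved in the same samples.

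The counts of the myeloid lists changed with single samples left out. Monocyte markers summed to 192.5 to 383.7 CPM in NS and 213.3 to 345.8 CPM in 4LPS samples, and 1 of 9 rose, but 6 of 9 on leaving out NS replicate 3 and 4 with the replicate block, which also called 1 lower. Border-associated macrophage markers summed to 1556 to 1583 and 1694 to 2118 CPM, and 2 of 12 rose. This count was 0 on leaving out 4LPS replicate 1, when 1 was lower, or 4LPS replicate 3, 1 for NS replicates 1 and 2, and 3 for NS replicate 3. For neutrophils, 0 of 9 passed in edgeR, with 3 higher at an unadjusted p under 0.05 and 1 higher in DESeq2, but all 9 were higher on leaving out NS replicate 3. The B cell sum was 14.3 to 19.3 and 21.7 to 22.1 CPM, with 1 gene tested and none called in edgeR, though it was higher at an unadjusted p under 0.05. Some markers of other brain cells were lower. Astrocyte markers summed to 360.3 to 376.7 CPM in NS and 238.6 to 261.2 CPM in 4LPS samples, and 3 of 8 were lower (2 on leaving out 4LPS replicate 1 or 3). Endothelial markers summed to 336.2 to 686.3 and 163.7 to 349 CPM, with 3 of 8 lower, 7 at an unadjusted p under 0.05 and 8 with the replicate block. That count was 0 on leaving out NS replicate 1, 4LPS replicate 1 or 4LPS replicate 2, 1 for NS replicate 3 and 6 for 4LPS replicate 3. The choroid plexus sum, from a tissue in which dendritic cells reside, varied from 1061 to 10070 CPM in NS and from 18 to 3346 CPM in 4LPS samples, with 4LPS replicate 2 the lowest. Among the 4LPS samples, Xcr1, Ccr7, Ccl22, Ccl17, Cd209a and Itgae were also lowest there. Clec9a, Fscn1 and Cd24a lay between the other replicates, and Zbtb46 was highest there. NS replicate 3 had the lowest choroid plexus sum of the NS samples. Zbtb46, Clec9a, Cd24a, Cd209a and Ccl17 were highest in it, Xcr1, Ccr7, Itgae and Fscn1 lowest, and Ccl22 in between. The part of tissue carried over in the dissection was not tested.

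**Figure D5:**
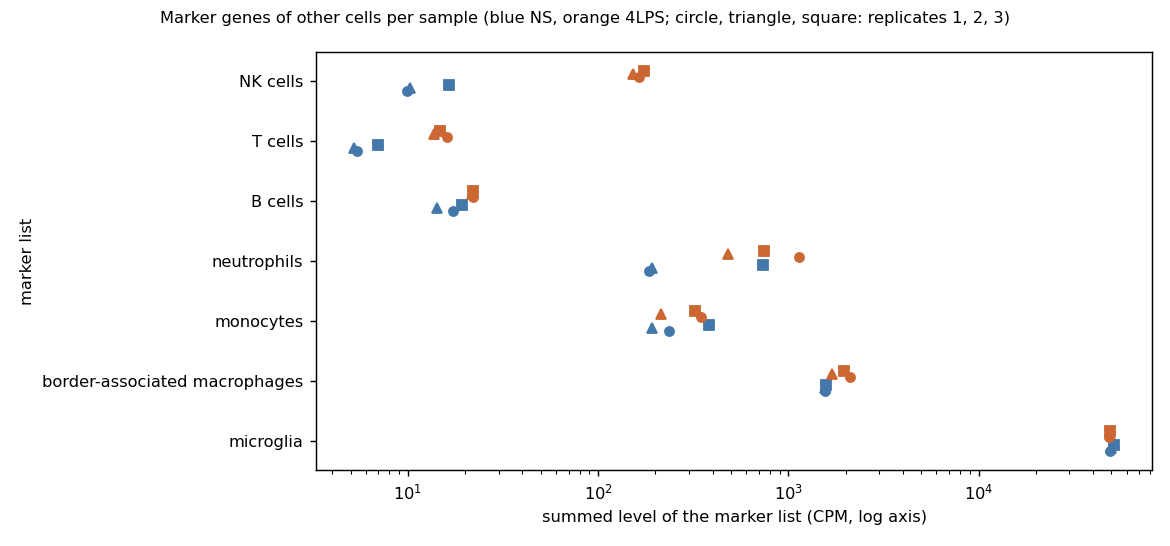
Summed level (CPM, log axis) of marker lists of other cells in each sample, with blue for NS and orange for 4LPS and circle, triangle and square for replicates 1, 2 and 3. NK and T cell sums separate between the groups, whereas the neutrophil and monocyte sums overlap, with NS replicate 3 the highest NS sample in both.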

How the data were processed

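RNA-seq was performed on CD11b+ cells from 3 NS and 3 4LPS samples, grouped by their labels. The authors filtered and mapped paired reads with HISAT2 2.0.4 and Bowtie2 2.2.5 and quantified genes by RSEM 1.2.8. The methods name mm39 as the build, and the submitters' notes name mm39 and mm10. Which gene annotation they used was not given in the sources used here. Expected counts, deposited by the authors, are estimated and not normalized (2.77% were not whole). They also deposited FPKM and TPM values, scaled for gene length and depth, and a normalized signal, the count divided by a size factor. TPM, the normalized signal and the authors' columns of group means and of their own comparison were not used.

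Expected counts were rounded and tested in R 4.3.3 with edgeR 4.0.16 (TMM, filterByExpr, quasi-likelihood F-test, Benjamini-Hochberg adjustment over 13151 genes, threshold 0.05). The fit was tested on simulated data. With 3 samples per group an exact permutation test cannot pass 0.05, so p-values come from models across all genes, and they measure the spread between pools of 2 mice. Count ratios have exact binomial intervals, which cover counting error only. Repeated libraries were looked for and not found, since all samples differed beyond counting noise. The members and lists were chosen with earlier results of these data known. Named genes were all members, up to 4 genes of smallest adjusted p per list (all called where 5 or fewer were) and the 3 nearest in pattern (mean of at least 1 CPM, prior count 2, total counts at least those of the member). A gene that this rule names is not reported here. Alternatives were RLE, upper-quartile or no composition factors, no filter or a stricter one (50 counts in at least 3 samples), DESeq2 1.42.0, voom, limma 3.58.1 on log2(FPKM + 1) and log2(FPKM + 0.1) with a filter at 1 FPKM, the former also without it, a replicate block and leaving out each sample. Coordinates are those of GRCm39 (GENCODE), and upstream sequences are from RefSeq (GRCm38.p6). Symbols of the lists with no match in the table were not analysed here.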

Additional observations from a re-analysis of the deposited data

How the results depend on the processing

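The count of 4 members called higher was 0 with at least 50 counts in 3 samples, a filter that removed the 4 called members, and 1 with limma on log2(FPKM + 1) or log2(FPKM + 0.1), where the filter at 1 FPKM left only Ccl22 of them. It ran from 2 to 5 when a sample was left out, with 2 on leaving out NS replicate 1 or 2 or 4LPS replicate 1. The count called lower was 1, Fscn1, with no composition factor, DESeq2 and the 3 limma fits on FPKM, and ran from 0 to 1 with a sample left out. Its log2 fold change was -0.335, -0.232, -0.327, -0.328 and -0.327 (the last without filter) in these fits and -0.304 to -0.168 with a sample left out. Xcr1 and Ccl22 kept their calls in all 14 and 16 alternatives that tested them. Clec9a ranged from 1.41 to 1.92 and Ccr7 from 1.53 to 2.22 with a sample left out, and Ccr7 was 0.565 (adjusted p = 0.0597) with limma on log2(FPKM + 1) without filter. With a sample left out, Zbtb46 ranged from 0.53 to 0.956, Cd24a from 0.0314 to 0.813, and Cd209a from -0.232 to 0.224, positive without NS replicate 3 (0.224) or 4LPS replicate 2 (0.173). The cause of these shifts was not tested.

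The wider lists gave 28 to 56 genes higher and 1 to 3 lower with a sample left out. Their count of 1 lower was 2 with upper-quartile factors or at least 50 counts, 5 with no composition factor, 4 with DESeq2, with either filtered limma fit on FPKM and with the replicate block, and 3 with limma without filter. Over all genes, 1308 were higher and 845 lower. Limma on FPKM gave 823 and 1486, 813 and 1454 with a pseudocount of 0.1, and 818 and 1335 without filter. With no composition factor 1711 were lower, the median log2 fold change of all genes was -0.114, and the higher share of all calls was 34.6% rather than 60.8%. It was 35.6% to 38% with limma on FPKM, so the directions reported are relative to TMM. Leaving out a sample gave 781 to 1629 higher and 363 to 1215 lower. Pairing of samples by replicate number was not shown. Deviations of same-numbered samples correlated at 0.473, -0.262 and 0.0663. NS replicate 1 correlated best with its own number, and NS replicate 2 and NS replicate 3 with another. With 3 samples per group, these correlations cannot exclude a pairing. The replicate block gave 1275 higher and 1081 lower, with 4 members higher.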
